A study of Mus musculus with 2 samples.

Results

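The outer segment of a photoreceptor is a modified cilium filled with stacked membrane discs, and the 10 genes described here encode proteins that build it, hold it in place or surround it. They are Rom1, Prph2, Prom1, Rp1, Rp1l1, Impg1, Impg2, Reep6, Cdhr1 and Fscn2. The genes were taken as a list of names, and all 10 were found among the 25778 genes of the count table. Their transcripts were followed by single-cell RNA sequencing (ScRNA-seq) of retinas from 30-day-old mice, with 1 library from 1 mouse per genotype. The control (Ptbp1-Ctrl) was labelled Chx10Cre and had unmodified Ptbp1 according to the methods, and the mutant (Ptbp1-KO) was Chx10-Cre;Ptbp1lox/lox. The Chx10-Cre transgene, active in retinal progenitors, was thus carried by both animals. The cell type names and cluster numbers are those deposited by the authors. With 1 animal per genotype, no difference between genotypes has a replicate check. All intervals below are 95% intervals and cover counting error only.

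Each outer segment is renewed throughout life: new discs form at its base and old ones are shed from its tip. Prph2 and Rom1 are paired tetraspanins of the disc rim, where they bend the membrane into a sharp edge. Prom1 (a pentaspan membrane protein) and Cdhr1 (a protocadherin) are found at the base, where nascent discs are still open. Rp1 and Rp1l1 are doublecortin-domain proteins that bind the microtubules of the axoneme, the ciliary core along which discs are stacked. Fscn2 bundles actin filaments, Reep6 shapes intracellular membranes that supply the rod outer segment, and Impg1 and Impg2 are proteoglycans of the interphotoreceptor matrix that bathes the segments. Mutations in many of these genes cause retinitis pigmentosa, macular dystrophy or cone-rod dystrophy.

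The 10 genes each lie on a chromosome of their own, except Rp1l1 and Cdhr1, which share chromosome 14, and they differ widely in size. In GENCODE coordinates on mm10, Rom1 is the shortest, spanning 1.97 kb (chr19:8927391-8929356, minus strand). Reep6 spans 6.49 kb (chr10:80329953-80336441, plus strand) and Fscn2 6.64 kb (chr11:120361534-120368168, plus strand). Prph2 (chr17:46910459-46924933, plus strand) and Cdhr1 (chr14:37077857-37098347, minus strand) span 14.5 kb and 20.5 kb, and Rp1l1 42.5 kb (chr14:63992506-64035025, plus strand). Impg2 spans 69.4 kb (chr16:56204313-56273756, plus strand), Prom1 108.4 kb (chr5:43993620-44102032, minus strand) and Impg1 152.2 kb (chr9:80313330-80465481, minus strand). Rp1 is the longest at 409.7 kb (chr1:3999557-4409241, minus strand). Only Prom1 shares exon sequence with another annotated gene, the antisense gene Gm16401, which had 10 and 21 UMIs in the rods of the 2 libraries.

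Promoter sequences from RefSeq (GRCm38.p6, the same assembly as mm10) were held for 7 of the 10 genes, the other 3 being Rp1, Rp1l1 and Reep6. The 250 bases before each start were searched on both strands for TAATC, the core of the sites bound by the photoreceptor homeodomain factors Crx and Otx2, and for TGCTGA, a half-site of the rod factor Nrl. TAATC or its reverse complement GATTA was present for 4 of the 7 genes (Prph2, Impg1, Impg2 and 1 of 2 Prom1 starts), against 19.8% of 32851 promoters of the same length. TGCTGA was present for 0 of the 7, against 16.1% of promoters, which says only that these letters are not in these windows. The upstream bases outside annotated exons are shown for the disc rim pair, of which Prph2 held the motif and Rom1 did not, and for both matrix proteoglycans, whose levels are set side by side below. Capitals mark TAATC or GATTA, and each sequence reads 5′ to 3′ on the strand of its gene.
Prph2, chr17:46910228-46910458 (plus strand): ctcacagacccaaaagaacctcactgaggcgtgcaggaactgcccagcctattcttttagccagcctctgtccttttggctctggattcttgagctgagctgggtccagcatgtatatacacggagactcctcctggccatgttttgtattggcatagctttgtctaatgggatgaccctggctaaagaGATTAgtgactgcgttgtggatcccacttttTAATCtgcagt
Rom1, chr19:8929357-8929551 (minus strand): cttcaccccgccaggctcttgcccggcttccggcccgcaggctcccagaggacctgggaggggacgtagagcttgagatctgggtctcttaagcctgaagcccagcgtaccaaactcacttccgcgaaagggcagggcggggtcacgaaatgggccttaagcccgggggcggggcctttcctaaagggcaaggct
Impg1, chr9:80465482-80465688 (minus strand): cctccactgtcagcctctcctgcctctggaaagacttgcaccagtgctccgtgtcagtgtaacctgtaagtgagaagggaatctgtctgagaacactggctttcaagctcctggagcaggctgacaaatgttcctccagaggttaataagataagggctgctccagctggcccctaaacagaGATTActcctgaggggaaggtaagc
Impg2, chr16:56204063-56204312 (plus strand): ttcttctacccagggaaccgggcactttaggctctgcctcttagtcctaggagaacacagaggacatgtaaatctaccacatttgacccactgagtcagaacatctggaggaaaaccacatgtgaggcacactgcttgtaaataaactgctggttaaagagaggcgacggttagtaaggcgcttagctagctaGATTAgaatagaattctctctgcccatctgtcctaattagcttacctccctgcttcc
Prph2 held 2 copies close to its start, and Impg2 held 1. Impg1 held 1 in the bases shown and a second in the stretch of its window that overlaps an annotated exon, which is left out here. These matches describe letters in a window, and binding was not measured in these data.

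Depth is given here in UMIs (unique molecular identifiers, each a counted transcript copy), of which there were 32758836 over 16421 cells of the control and 35328593 over 14522 cells of the mutant. Rods numbered 10058 and 9301, with medians of 1088 and 1288 UMIs per cell, and cones numbered 632 and 439, with medians of 2660 and 3179 UMIs. Ptbp1 was at 19.6 CPM (255 UMIs) in the rods of the control and at 0.276 CPM (4 UMIs) in those of the mutant, and at 24 UMIs and 1 UMI in cones. The summed level of 6 rod markers was 29624 and 26372 CPM in rods, and that of 6 cone markers was 28130 and 28867 CPM in cones against 164 and 186 CPM in rods, so both labels carried their markers. The libraries shared 63 cell barcodes, 0.384% and 0.434% of their cells. Although the methods describe female mice, 4 Y-linked genes had 16275 and 19242 UMIs and Xist had 5 and 6.

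Rods devoted more of their transcripts to these genes than cones did. Together the 10 genes made up 1.35% of all UMIs of control rods and 1.28% of those of mutant rods, against 0.637% and 0.623% in cones. Single genes are given in CPM, counts per 1000000 UMIs summed over the cells of a type and library, with the control first. Since the kit counts transcript ends, CPM carries no length scaling, but whether intronic reads were counted was not given in the sources used here. Among genes with a mean of at least 50 CPM and 50 UMIs over rods and cones, 6 of 10 were at least 2-fold higher in rods than in cones in Ptbp1-Ctrl and 7 of 10 in Ptbp1-KO. Of all genes meeting the same minimum, 6.95% and 7.89% were that much higher in rods in the 2 libraries. None of the 10 was 2-fold lower in rods, as 7.61% and 7.87% of genes were. The median log2 ratio of rods over cones was 1.18 over the 10 genes in Ptbp1-Ctrl and 1.12 in Ptbp1-KO, beside 0.04 and 0.03 over all 3943 and 4029 genes compared.

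**Figure D1:**
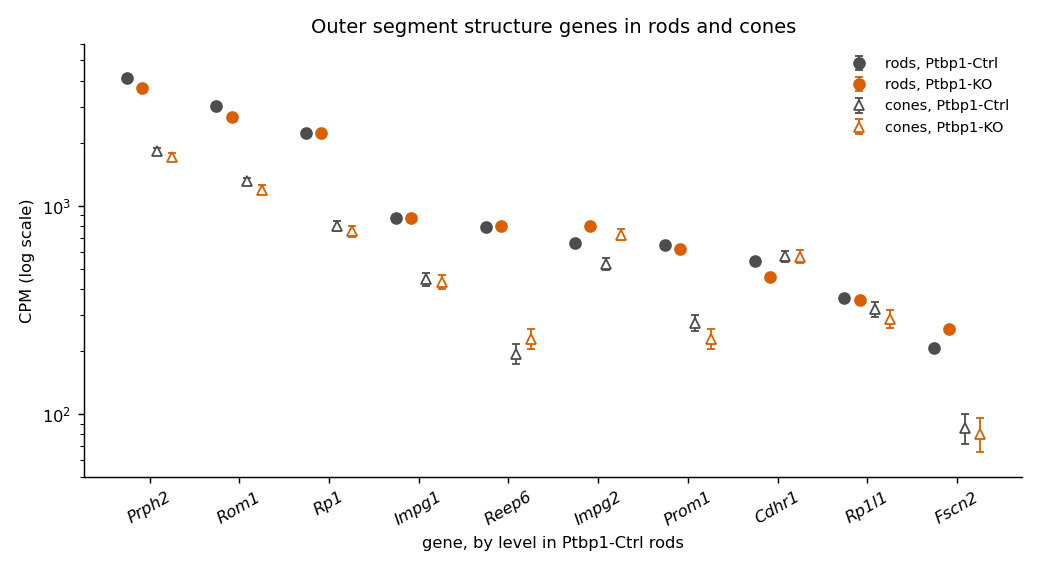
Level of each gene in CPM (log axis) in rods (filled circles) and cones (open triangles) of the Ptbp1-Ctrl (grey) and Ptbp1-KO (orange) library, with 95% Poisson counting intervals. Prph2, Rom1 and Rp1 stood highest in rods, and Cdhr1 was the gene whose cone level equalled or exceeded its rod level.

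Among the disc rim genes, Prph2 was at 4116 CPM in rods of Ptbp1-Ctrl and 3680 CPM in rods of Ptbp1-KO, and at 1843 and 1721 CPM in cones. Rom1 was at 3022 and 2666 CPM in rods and at 1313 and 1199 CPM in cones. The log2 ratio of rods over cones was 1.16 (1.11 to 1.21) and 1.10 (1.04 to 1.16) for Prph2 in the 2 libraries. For Rom1 it was 1.20 (1.14 to 1.26) and 1.15 (1.08 to 1.22). Pooled over each cell type, the rim partners stood in almost the same proportion. There were 1.36 and 1.38 Prph2 UMIs per Rom1 UMI in rods and 1.40 and 1.44 in cones. The intervals overlapped between the types (1.34 to 1.38 and 1.33 to 1.48 in Ptbp1-Ctrl). Rod clusters differed, from 1.86 and 1.76 in cluster 0 to 1.13 and 1.15 in cluster 3, and rod transcripts were present in cones (both given below).

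The axonemal genes behaved differently from each other. Rp1 was at 2230 and 2253 CPM in rods and 801 and 757 CPM in cones, log2 ratios of 1.48 (1.40 to 1.56) and 1.57 (1.49 to 1.66). Rp1l1 was at 361 and 353 CPM in rods and at 319 and 286 CPM in cones, log2 ratios of only 0.18 (0.05 to 0.31) and 0.30 (0.16 to 0.45). There were 6.18 (5.99 to 6.38) and 6.38 (6.19 to 6.57) Rp1 UMIs per Rp1l1 UMI in rods but 2.51 (2.27 to 2.77) and 2.64 (2.36 to 2.97) in cones. In both libraries the interval of the rods lay above that of the cones.

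At the disc base, Prom1 and Cdhr1 also parted. Prom1 was at 647 and 621 CPM in rods and 274 and 229 CPM in cones, log2 ratios of 1.24 (1.10 to 1.37) and 1.44 (1.28 to 1.60). Cdhr1 was at 546 and 455 CPM in rods and at 574 and 571 CPM in cones. Its log2 ratio was −0.07 (−0.17 to 0.03) in Ptbp1-Ctrl, where rods and cones could not be told apart at this depth, and −0.33 (−0.43 to −0.22) in Ptbp1-KO. It was the only one of the 10 genes below 0 in either library. The sign in Ptbp1-Ctrl changed in 3 of 7 alternatives, with 0.0083 under TMM scaling, 0.076 after thinning and 0.30 with rod RNA subtracted from the cones, against −0.22 when each cell's own CPM was averaged. In Ptbp1-KO it stayed below 0 in all 7, from −0.60 to −0.01. In both libraries the 7 include the setting without a minimum of UMIs, which repeats the main value.

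Reep6 had the widest gap, at 795 and 804 CPM in rods and 195 and 231 CPM in cones, log2 ratios of 2.03 (1.87 to 2.19) and 1.80 (1.64 to 1.96). Fscn2 was lowest of the 10 in both types, at 207 and 257 CPM in rods and 85.4 and 80.0 CPM in cones, log2 ratios of 1.28 (1.04 to 1.52) and 1.69 (1.42 to 1.97). Of the matrix proteoglycans, Impg1 was at 875 and 872 CPM in rods and 444 and 431 CPM in cones, a log2 ratio of 0.98 (0.88 to 1.09) in Ptbp1-Ctrl, just under 2-fold, and 1.02 (0.90 to 1.14) in Ptbp1-KO, just over it. Impg2 was at 664 and 802 CPM in rods and 525 and 728 CPM in cones, log2 ratios of 0.34 (0.24 to 0.44) and 0.14 (0.05 to 0.23). The order of the pair was opposite in the 2 cell types: there were 0.759 and 0.919 Impg2 UMIs per Impg1 UMI in rods, and 1.18 and 1.69 in cones.

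Rod transcripts were present in every other cell type, and these cone levels have to be read against them. The 6 rod markers (Gnat1, Pde6a, Cnga1, Nrl and Nr2e3 among them) stood in cones at a median of 24.1% of their rod level in Ptbp1-Ctrl (22.2% to 25.3% over the markers) and 24.8% in Ptbp1-KO (20.8% to 28.5%). Reep6 was at 24.5% and 28.7% of its rod level in cones, 1.02 and 1.16 times that median. This lay within the range of the markers in Ptbp1-Ctrl and just above the highest of them in Ptbp1-KO. How much of its cone counts is rod background was not tested. Fscn2 was at 41.3% and 31.1%, Rp1 at 35.9% and 33.6%, and Prom1 at 42.4% and 36.9%. Prph2, Rom1 and Impg1 lay between 43.5% and 50.7% in both libraries. Impg2 (79.0% and 90.8%), Rp1l1 (88.5% and 81.0%) and Cdhr1 (105% and 125%) stood at 3.26 to 5.05 times the marker median. When rod RNA was subtracted from the cones at the marker median, the median log2 ratio of rods over cones was 2.32 and 2.25 in place of 1.18 and 1.12.

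The same contrast showed in the share of cells with a UMI after each cell was thinned to 1000 UMIs, which left 5903 and 6175 rods and 589 and 425 cones. Cdhr1 had a UMI in 39.9% and 31.6% of thinned rods and in 40.4% and 40.2% of thinned cones. Reep6 had one in 50.7% and 45.5% of rods and in 14.3% and 16.2% of cones. Without thinning, when cones were deeper than rods, the shares for Cdhr1 were 39.5% and 37.0% in rods and 69.0% and 75.2% in cones, and those for Reep6 were 47.1% and 46.9% and 29.9% and 35.5%.

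A fixed list of 24 further outer segment, ciliary and matrix genes gave the surroundings. Of these, 23 were in the table and 20 passed the minimum. At least 2-fold higher in rods were 3 of the 20 in both libraries, named after their values were seen: the rod channel subunit Cngb1 (log2 ratios of 2.25 and 2.26), the rod exchanger Slc24a1 (2.11 and 1.99) and the ankle-link protein Adgrv1 (1.247 and 1.268). Their median log2 ratio was 0.28 and 0.38, against 1.18 and 1.12 for the 10 structure genes.

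Between genotypes, differences in rods were small: 0 of the 10 genes had a log2 ratio of Ptbp1-KO over Ptbp1-Ctrl past 0.32 in either direction (a fold of 5 to 4), while 4.07% of the 3855 genes compared in rods were that much higher and 3.42% that much lower. The median was −0.02 over the 10 genes and 0.00 over all genes. No test was possible with 1 library per genotype. Fscn2 (207 and 257 CPM) had a log2 ratio of 0.31 (0.24 to 0.39) and Impg2 (664 and 802 CPM) one of 0.27 (0.23 to 0.31). On the lower side were Cdhr1 at −0.26 (−0.31 to −0.21), Rom1 at −0.18 (−0.20 to −0.16) and Prph2 at −0.16 (−0.18 to −0.14). Prom1 was at −0.06 (−0.10 to −0.02). The intervals of Rp1, Rp1l1, Impg1 and Reep6 held 0, with values between −0.03 and 0.02. Scaling by the median of ratios moved all of these by −0.11, which left Fscn2 and Impg2 above 0 and Cdhr1, Rom1, Prph2 and Prom1 below it, and took Rp1 and Reep6 below 0. That shift, and the one of TMM scaling (−0.09), also took Cdhr1 past 0.32 on the lower side.

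In cones, the summed counts were smaller and the intervals wider. Impg2 was past 0.32, at 525 and 728 CPM, a log2 ratio of 0.47 (0.34 to 0.60), and it was the only one of the 10 past that limit in either direction. Among the 3997 genes compared in cones, 8.38% were past it on the higher and 8.76% on the lower side, so 1 of 10 is close to the background. With rod RNA subtracted from the cones, Reep6 (3.25), Fscn2 (−1.14), Prom1 (−0.66) and Rp1 (−0.42) were past that limit as well. Impg2 lay above the 95th percentile of all genes in cones (0.39), as Fscn2 did in rods (0.29). Reep6 had a log2 ratio of 0.24 (0.02 to 0.47) on counts near the level of the rod markers in cones. Prom1 had one of −0.26 (−0.47 to −0.05), Rom1 one of −0.13 (−0.22 to −0.04) and Prph2 one of −0.10 (−0.18 to −0.02). The intervals of the other 5 genes held 0, and Cdhr1, which was lower in Ptbp1-KO rods, had −0.01 (−0.14 to 0.13) in cones. The median over the 10 was −0.09, beside −0.02 over all genes.

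**Figure D2:**
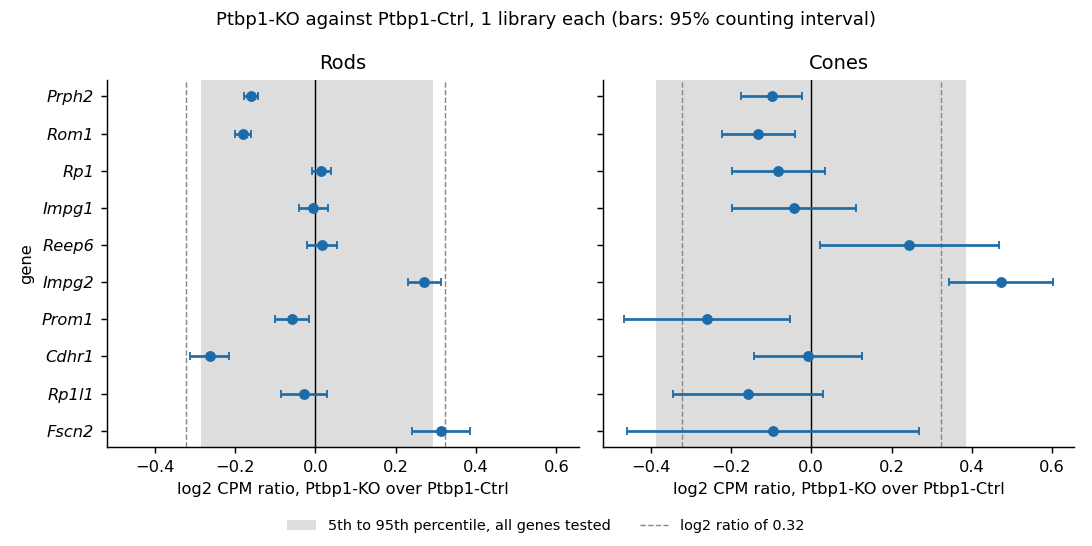
Log2 ratio of CPM, Ptbp1-KO over Ptbp1-Ctrl, for each gene in rods (left) and cones (right), with 95% counting intervals. The grey band spans the 5th to 95th percentile of all genes compared, dashed lines mark log2 ratios of 0.32 either way, and Impg2 in cones is the point beyond them at 0.47.

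Impg2 stood apart from its partner Impg1 in both photoreceptor types. Impg1 was at 875 and 872 CPM in rods and at 444 and 431 CPM in cones, log2 ratios of −0.01 (−0.04 to 0.03) and −0.04 (−0.20 to 0.11). The number of Impg2 UMIs per Impg1 UMI, which does not depend on scaling, was 0.759 (0.738 to 0.780) in Ptbp1-Ctrl rods and 0.919 (0.896 to 0.943) in Ptbp1-KO rods. In cones it was 1.18 (1.07 to 1.30) and 1.69 (1.53 to 1.87), or 1.15 and 1.43 with each cell thinned to 1000 UMIs. The thinned share of rods with an Impg2 UMI was 46.7% (45.4% to 47.9%) and 52.3% (51.0% to 53.5%), and that of cones 40.2% (36.3% to 44.3%) and 49.4% (44.6% to 54.3%).

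Of the 20 further genes that passed the minimum, 0 were past 0.32 in rods, with a median log2 ratio of 0.01. In cones, 3 of 20 were past it on the lower side, where 8.76% of all genes were, so that this count is also close to the background. They were Cep290, a protein of the ciliary transition zone (372 and 282 CPM, −0.40), Pcare, a protein of the outer segment base (111 and 86.3 CPM, −0.37), and Whrn, a scaffold of the periciliary membrane (90.5 and 68.0 CPM, −0.41). Rbp3, the other main protein of the interphotoreceptor matrix, was at −0.30 over all rods and 0.07 in cones, unlike Impg2. In the authors' rod clusters 0 to 3, described below, Rbp3 was at 444 and 353, 936 and 841, 1206 and 1206, and 2926 and 2946 CPM.

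The authors' clusters divided all rods into 4 groups, numbered 0 to 3, and levels of Reep6, Rom1, Cdhr1, Prph2 and Fscn2 differed more from cluster 0 to cluster 3 than between genotypes, while Impg2 had log2 differences of 0.14 and 0.30 between these clusters and of 0.27 between genotypes. The clusters were built from gene expression that includes these genes, so the levels are a description with no test. Cluster 0 took 45.9% of the control rods and 58.7% of the mutant rods, cluster 1 held 15.2% and 12.2%, cluster 2 held 20.7% and 18.6%, and cluster 3 held 18.2% and 10.5%. Median depth was 936 and 1064 UMIs in cluster 0 and 1431 and 1993 UMIs in cluster 3, and the median mitochondrial share was 0.662% and 0.801% in cluster 0 and 5.12% and 4.60% in cluster 3.

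Reep6 was at 355 and 360 CPM in cluster 0, 414 and 337 in cluster 1, 818 and 983 in cluster 2, and 1642 and 2008 in cluster 3. Rom1 went from 1428 and 1347 CPM in cluster 0 through 2167 and 2011, then 3130 and 3123, to 5829 and 6016 in cluster 3. Cdhr1 went from 264 and 230 CPM to 1096 and 1074 between the same clusters. These 3 genes were 4.08 to 5.58 times as high in cluster 3 as in cluster 0 in both libraries. Prph2 (2662 and 2366 CPM, then 6588 and 6942) and Fscn2 (128 and 156, then 331 and 514) were 2.47 to 3.30 times as high. Rp1l1 was 1.43 and 1.57 times as high. Rp1 and Impg2 lay between 1.10 and 1.23 times, and Prom1 at 0.980 and 0.904 times. Impg1 alone was clearly lower in cluster 3, at 651 and 650 CPM against 1021 and 946.

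In each library 6 of the 10 genes had a log2 ratio of cluster 3 over cluster 0 above 0.32 and 1 was below −0.32. Of all genes compared, 33.8% and 36.1% were that much higher and 50.3% and 48.5% lower. The median log2 ratio was 0.91 and 1.10 over the 10 genes, beside −0.33 and −0.26 over all genes. The proportions within pairs moved too. There were 1.86 and 1.76 Prph2 UMIs per Rom1 UMI in cluster 0 and 1.13 and 1.15 in cluster 3. Impg2 per Impg1 went from 0.649 and 0.808 to 1.12 and 1.44.

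**Figure D3:**
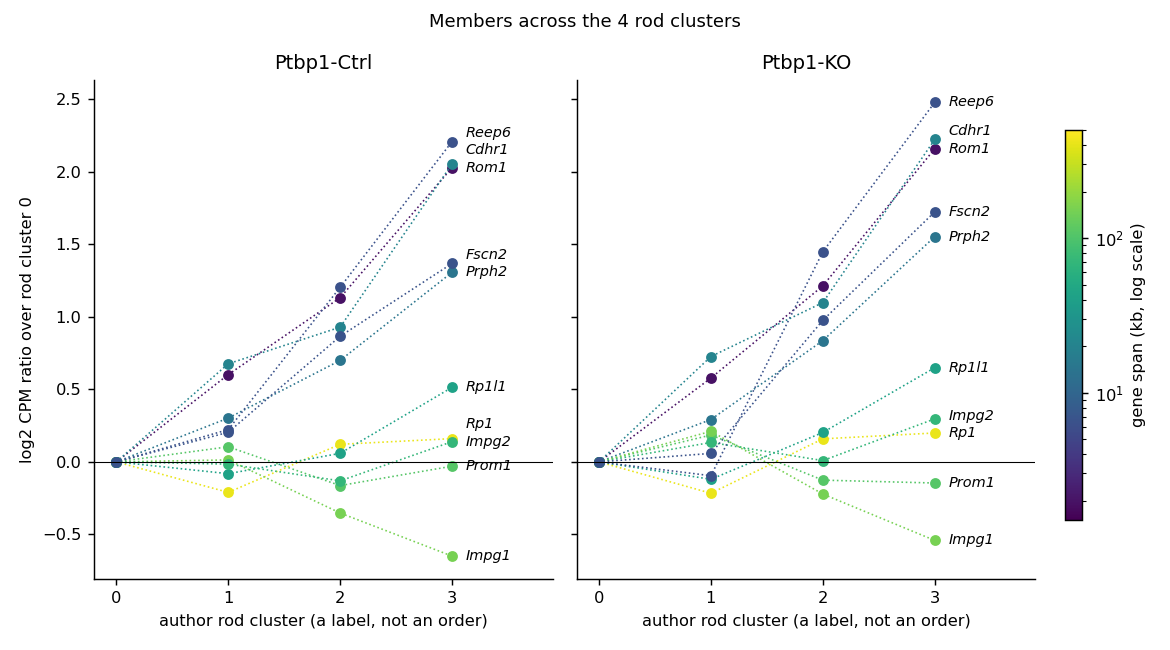
Log2 ratio of each gene's CPM in rod clusters 1, 2 and 3 over cluster 0, in Ptbp1-Ctrl (left) and Ptbp1-KO (right), coloured by gene span in kb on a log scale. The short genes Reep6, Cdhr1 and Rom1 ended near 2 or above and the long gene Impg1 at −0.65 and −0.54.

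The order of the 10 genes in this contrast followed their length. The log2 ratio of cluster 3 over cluster 0 had a correlation across the 10 genes with log10 gene span of −0.86 in Ptbp1-Ctrl and −0.87 in Ptbp1-KO (Pearson, genes from the same cells, which are not independent). The same trend ran through all genes with an annotated span, with −0.74 (3718 genes) and −0.73 (3764 genes). Genes under 25 kb had a median log2 ratio of 0.923 and 0.999, and genes over 60 kb one of −1.18 and −1.21. All 4 of the genes longer than 60 kb lay above the median of long genes, Rp1 (409.7 kb) at 0.16 and 0.20, Impg2 (69.4 kb) at 0.14 and 0.30, Prom1 (108.4 kb) at −0.03 and −0.15 and Impg1 (152.2 kb) at −0.65 and −0.54. Malat1, a nuclear RNA, was at 35006 and 41006 CPM in cluster 0 and at 7300 and 6883 CPM in cluster 3. The part of nuclear RNA, depth and mitochondrial share in these cluster levels was not tested.

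Since the clusters were unequally filled in the 2 libraries, the genotypes were also compared within each. For Rom1 the log2 ratio of Ptbp1-KO over Ptbp1-Ctrl was −0.18 over all rods but −0.08, −0.11, 0.00 and 0.05 in clusters 0, 1, 2 and 3. For Cdhr1 it was −0.26 over all rods and −0.20, −0.15, −0.03 and −0.03 within them. Prph2 had −0.16 over all rods and −0.17, −0.18, −0.03 and 0.08. Their means over the 4 clusters were −0.04, −0.10 and −0.08, each smaller than over all rods. For Cdhr1 and Rom1 thinning each cell to 1000 UMIs went the other way, to −0.40 and −0.32, which put Cdhr1 past 0.32. Thinning left out cells unevenly, 2649 of 4614 control rods and 2370 of 5462 mutant rods in cluster 0 but 173 of 1835 and 4 of 972 in cluster 3, so cluster 3 weighed more in the thinned values and in the thinned shares above. The summed level of the 6 rod markers was also lower in Ptbp1-KO rods, at 29624 and 26372 CPM.

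Impg2 and Fscn2, by contrast, were higher in Ptbp1-KO in every cluster. Impg2 was at 663 and 764 CPM in cluster 0, 656 and 839 in cluster 1, 605 and 769 in cluster 2, and 730 and 939 in cluster 3, which is 1.15, 1.28, 1.27 and 1.29-fold, with each interval above 1. Fscn2 was at 128 and 156, 148 and 162, 234 and 306, and 331 and 514 CPM, log2 ratios of 0.28, 0.13, 0.39 and 0.64. Its interval in cluster 1 (−0.15 to 0.42) held 0 and the other 3 did not. The mean over clusters was 0.32 for Impg2 and 0.36 for Fscn2.

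Reep6, at 0.02 (−0.02 to 0.05) over all rods, varied with the cluster: 0.02 (−0.07 to 0.11) in cluster 0, −0.30 (−0.48 to −0.11) in cluster 1, 0.27 (0.19 to 0.34) in cluster 2 and 0.29 (0.23 to 0.35) in cluster 3. Rp1 stayed within 0.04 of 0 in all 4. Rp1l1 lay between −0.09 and 0.09, with 0 in every interval.

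**Figure D4:**
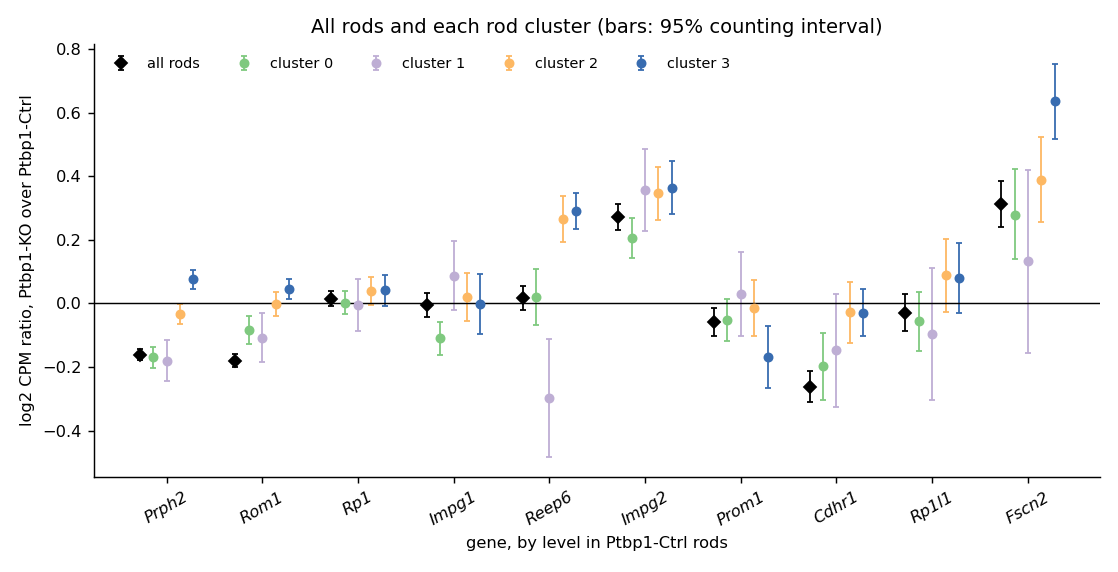
Log2 ratio of CPM, Ptbp1-KO over Ptbp1-Ctrl, for each gene over all rods (black diamonds) and within rod clusters 0 to 3 (coloured circles), with 95% counting intervals. Impg2 and Fscn2 lie above 0 in all 4 clusters, while Rom1, Prph2 and Cdhr1 lie nearer 0 in clusters 2 and 3 than over all rods.

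Outside photoreceptors, Prom1 in AC stood farthest from the rod markers. In bipolar cells (BC), amacrine cells (AC) and Müller glia (MG), rod markers had medians of 13.8% to 17.9% of their rod level over the 2 libraries. The 9 genes other than Prom1 lay between 10.3% and 23.2% there. The highest were in BC, where Rom1 (23.2% and 21.8%) and Cdhr1 (22.6% and 22.2%) lay above the highest of the markers (15.4% and 15.2%). Fscn2 (19.1% and 15.8%), Rp1l1 (18.4% and 16.5%), Impg2 (18.4% and 16.7%) and Prph2 (17.8% and 16.8%) also lay above it in BC. In MG, Reep6 (19.3% and 17.4%) and Rom1 (17.4% and 15.6%) lay above the highest marker there (16.6% and 15.3%). What these gaps rest on was not tested. Prom1 stood at 14.5% and 12.6% in BC and at 13.3% and 9.49% in MG, but at 63.6% and 52.1% in AC (411 and 324 CPM), 3.72 and 2.91 times the marker median.

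The Prom1 counts of AC came mostly from 1 of the authors' clusters, given here as a description. In AC of cluster 14 (223 and 214 cells) Prom1 was at 913 CPM (842 to 988) in Ptbp1-Ctrl and 903 CPM (845 to 965) in Ptbp1-KO, which is 141% and 145% of the rod level, whereas rod markers there had medians of 12.1% and 12.8%. In AC of clusters 6 and 15 it was at 168 and 118 CPM and at 115 and 152 CPM. After thinning to 1000 UMIs, 57.3% (50.4% to 63.9%) and 59.8% (52.9% to 66.4%) of cluster 14 cells had a Prom1 UMI, against 14.3% and 14.5% in cluster 6 and 10.4% and 14.5% in cluster 15. Prph2 and Rom1 in cluster 14 stayed at 11.0% to 14.6% of their rod level. Against the other AC, cluster 14 was led by Myf6, Fgfr4 and Esr1. Over both libraries it held the glycine transporter Slc6a9 at 1182 CPM and the AC gene Pax6 at 879 CPM, while Gad1, which makes the transmitter GABA, was at 0 UMIs and Tfap2b at 15.3 CPM. Antisense Gm16401 had 1 and 5 UMIs over all AC. The log2 ratio of Ptbp1-KO over Ptbp1-Ctrl for Prom1 was −0.35 over all AC and −0.02 (−0.17 to 0.14) in cluster 14, which held 33.0% of AC in Ptbp1-Ctrl and 22.6% in Ptbp1-KO. It was −0.51 (−0.82 to −0.20) in cluster 6 and 0.40 (−0.07 to 0.89) in cluster 15.

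**Figure D5:**
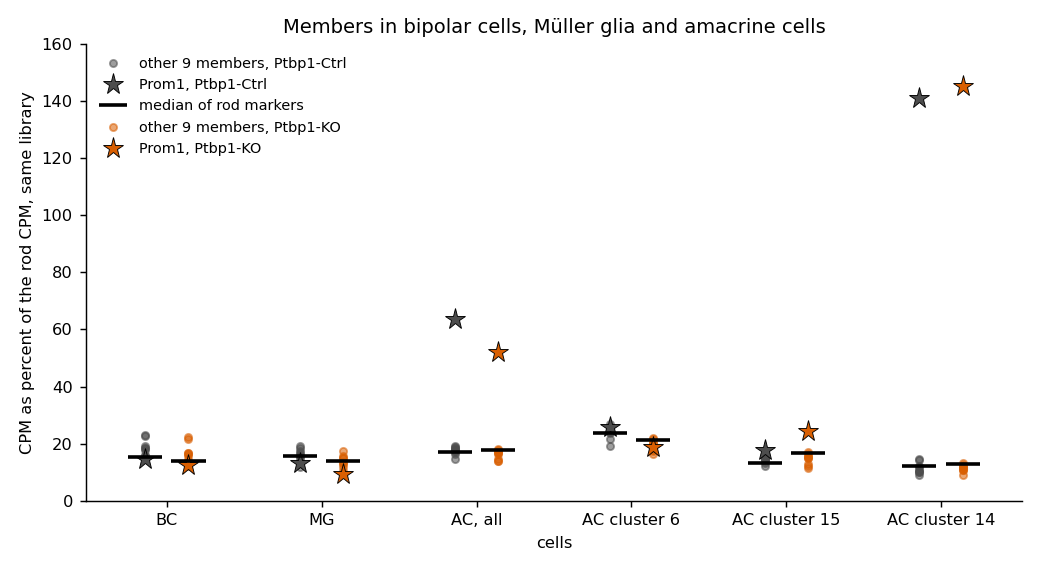
CPM as a percent of the rod CPM of the same library in BC, MG, all AC and the AC of clusters 6, 15 and 14, for Prom1 (stars) and the other 9 genes (dots), with the median of 6 rod markers as a bar. In AC cluster 14, Prom1 stands at 141% and 145% and the other genes near the bar.

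Across 42 combinations of cluster and library with at least 100000 UMIs, the mean log2(CPM + 1) over the 10 genes was followed closely by Sag, the rod arrestin (Pearson r = 0.988), Pdc, phosducin (0.981), Fam57b (0.980) and Rdh12, a photoreceptor retinol dehydrogenase (0.976). Among the 10 genes, each set against the mean of the other 9, Prph2 was the closest (0.986) and Prom1 the most distant (0.737). These points share libraries and rod background and are a description only.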

How the data were processed

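Retinas of 1 Ptbp1-Ctrl and 1 Ptbp1-KO mouse were profiled with the Chromium 3′ kit. Per the submitters' processing notes, the authors used Cell Ranger 7.0.1, mm10 and Seurat 4. They filtered cells on genes, UMIs and mitochondrial share, clustered them and named cell types from markers. The deposited table held raw UMI counts for 30943 cells (701 to 9998 UMIs per cell), whose sums equalled the deposited totals in all 30943. The deposited cell table gave the percent of mitochondrial UMIs (at most 19.9 percent). The annotation and intron counting were not given in the sources used here. In the cell table, 2 further columns were not used.

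UMIs were summed per library and cell type or cluster and scaled to CPM, with exact Poisson intervals. Ratios have exact conditional binomial intervals, and shares exact Clopper-Pearson intervals, all at 95%. No test was run between genotypes, since 1 animal stood for each. A gene was compared at a mean of at least 50 CPM and 50 UMIs, and counted as past a fold at a log2 ratio of 0.32 between genotypes or rod clusters and at 2-fold between rods and cones. Cells were thinned to 1000 UMIs with a fixed seed and shallower ones left out (4155 and 3126 rods, 43 and 14 cones). No doublet caller was run, and an alternative left out the 5% of cells with the most UMIs. Interval coverage was tested on simulated Poisson counts only. These follow the model that the intervals assume and hold no spread between cells or animals. Tools were Python 3.11.15, numpy 2.4.6, scipy 1.17.1 and, for TMM factors, edgeR 4.0.16.

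Named were the 10 genes, those of a fixed list of 24 further genes past 0.32, the 5 genes most like the 10 across clusters, and Ptbp1, of which some values are not reported here. Other named genes, and the gene span limits of 25 and 60 kb, were chosen after their values were seen. The 10 genes and all lists were chosen with earlier results of these data known. Alternatives covered scaling, thinning, cell filters, rod RNA subtraction, averaging over clusters and other thresholds.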

Additional observations from a re-analysis of the deposited data

Results flagged for a closer look

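With 1 library per genotype, the 3 genes below were picked out because their log2 ratio of Ptbp1-KO over Ptbp1-Ctrl had counting intervals on opposite sides of 0 among rods, cones, BC, AC and MG, or among rod clusters. The cells labelled RGC, which held rod markers at 61.6% and 79.8% of the rod level, and the few HC were left out of this search. In RGC, Fscn2 (0.94), Reep6 (0.73), Impg2 (0.63), Rp1 (0.35), Rom1 (0.25) and Prph2 (0.22) had intervals above 0. With RGC included Rp1 would also be picked out, at −0.17 in BC. The differences between these ratios were not tested. Reep6 was higher in Ptbp1-KO in cones (0.24) and AC (0.28) and lower in BC (−0.13), all on counts near the rod background. Within rods it was higher in clusters 2 (0.27) and 3 (0.29) and lower in cluster 1 (−0.30). Rom1 was higher in rod cluster 3 (0.046) and lower in clusters 0 (−0.084) and 1 (−0.11). Prph2 was higher in rod cluster 3 (0.076) and lower in clusters 0 (−0.17), 1 (−0.18) and 2 (−0.034). Cluster 1 held 1525 and 1138 rods and cluster 3 held 1835 and 972.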

How the results depend on the processing

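All differences between genotypes rest on 1 library each, and counting intervals do not cover differences between animals or dissociations. No paired analysis was possible because each genotype has 1 library. Of 360 recomputed ratios of single genes, 251 stayed within their counting interval, 109 moved beyond it, and 0 past their fold changed sign. The cause of these moves was not tested.

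The median log2 ratio of Ptbp1-KO over Ptbp1-Ctrl in rods was −0.02, and −0.11 with TMM scaling and −0.13 with median-of-ratios scaling, where the median of all genes moved as well (−0.09 and −0.11). In cones the median stayed within its interval in all 8 alternatives, from −0.14 to 0.00, the setting without a minimum of UMIs repeating the main value. Single genes moved further in cones with rod RNA subtracted. Fscn2 went from −0.09 to −1.14, Prom1 from −0.26 to −0.66, Rp1 from −0.08 to −0.42 and Reep6 from 0.24 to 3.25. For rods over cones, the median of 1.18 in Ptbp1-Ctrl became 1.26 with TMM, 1.24 with median-of-ratios scaling, 1.33 with thinned cells, 1.06 averaged over cells and 2.32 with rod RNA subtracted from cones. The median of 1.12 in Ptbp1-KO became 1.19 with TMM, 0.98 averaged over cells and 2.25 with rod RNA subtracted. That subtraction gave Reep6 log2 ratios of rods over cones of 7.92 in Ptbp1-Ctrl and 4.68 in Ptbp1-KO. Rod cluster 3 over cluster 0, with alternatives chosen after seeing the data, went from 0.91 to 0.81 in Ptbp1-Ctrl with thinned cells. Thinning also moved some UMI ratios beyond their interval, to 1.34 for Prph2 per Rom1 and 0.790 for Impg2 per Impg1 in control rods, 6.57 for Rp1 per Rp1l1 in mutant rods and 1.43 for Impg2 per Impg1 in mutant cones, and Prom1 in AC cluster 14 of the mutant to 156% of the rod level.

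The percent of genes past a log2 ratio of 0.32 in either direction was 7.50% in rods and 17.1% in cones. It became 12.5% and 27.2% with a minimum of 10 CPM, 10.3% and 11.2% with 200 CPM, and 1.63% and 2.58% at 1.5-fold, where Impg2 in cones was no longer past the fold (0 of 10 genes). At 1.5-fold between rods and cones, 31.9% and 32.7% of genes were past the fold in either direction against 14.6% and 15.8% at 2-fold, and 7 of the 10 genes in each library.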

Other observations

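Cells labelled RGC (124 and 97 cells) held the 10 genes at 37.7% to 66.1% of the rod level in Ptbp1-Ctrl and 49.1% to 92.8% in Ptbp1-KO. Rod markers stood at 61.6% and 79.8% in the same cells, whose summed RGC marker level was 2624 and 1792 CPM. The labelled HC numbered 17 and 7, too few to read single genes.

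The further gene Adgrv1, an ankle-link protein of the connecting cilium, was at 778 and 956 CPM in rods (log2 ratio of Ptbp1-KO over Ptbp1-Ctrl 0.30, 0.26 to 0.33) and at 328 and 397 CPM in cones (0.28, 0.11 to 0.45). It was past 0.32 in neither cell type. In rod clusters 0 to 3 Adgrv1 was at 1063 and 1229, 986 and 1216, 704 and 798, and 305 and 301 CPM. In cluster 3 the intervals of the 2 libraries overlapped (287 to 325 and 280 to 324). Whrn, a scaffold of the same complex, was at 110 and 114 CPM in rods (0.05, −0.05 to 0.16) and lower in cones as given above. These genes were chosen after their values were seen.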
